A study of Homo sapiens with 8 samples.

Results

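The genes described here are 10 members of the signalling route that runs from leukemia inhibitory factor and oncostatin M through JAK kinases to STAT3 and its SOCS inhibitors: LIF, LIFR, OSMR, JAK1, JAK2, TYK2, STAT3, SOCS2, SOCS3 and CISH. They were taken by symbol from the gene count table, in which each of the 10 was found on 1 line, among 60622 gene lines in all. Poly(A) RNA-seq was carried out on 2 human prostate cancer cell lines. LNCaP responds to androgen and was derived from a metastasis in a lymph node; PC3 grows without androgen and came from bone. The 4 groups were LNCaP control, LNCaP with the microRNA miR-375 overexpressed, PC3 control and PC3 with miR-375 overexpressed, with 2 libraries in each. The way miR-375 was raised, its duration and the treatment of the controls are not described in the labels. LNCaP was grown with 10% serum and PC3 with 20%, so line and serum cannot be told apart in any comparison of the lines.

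LIF and oncostatin M are secreted proteins of the interleukin-6 family. LIF binds LIFR, and oncostatin M can bind OSMR, each together with the shared receptor chain gp130 (IL6ST). The receptors have no kinase of their own: JAK1, JAK2 and TYK2 sit on their inner ends, phosphorylate them, and phosphorylate STAT3 when it docks there, after which STAT3 enters the nucleus and acts as a transcription factor. SOCS3, SOCS2 and CISH belong to a family of inhibitors whose genes are switched on by STAT proteins and which damp the receptors or kinases in return. In prostate cancer the route is studied for its part in growth and survival, LNCaP is known for little JAK1, and PC3 is known as a line that lacks STAT3.

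A microRNA acts mostly through its seed, which pairs with matching letters in the untranslated end of a messenger RNA. The mature strand is shown with its seed (bases 2 to 8) in capitals, as RefSeq gives it on chromosome 2 (219001648 to 219001669, minus strand, GRCh38.p14), and below it stand the seed matches that were found among the 10 genes, read 5′ to 3′ in the sense of the messenger RNA. The capitals in the target sites mark the match to bases 2 to 7 of the miRNA followed by A.
hsa-miR-375-3p: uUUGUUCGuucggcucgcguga
JAK2, first site: tagatttacaGAACAAAgttttatattt
JAK2, second site: cacataaaggGAACAAAtgtctagtttt
LIF: tttgtgcagtGAACAAActacacaagtc
The JAK2 sites lie on chromosome 9 (5126831 to 5126837 and 5127427 to 5127433, plus strand, GRCh38), at bases 40 and 636 of a 3′ UTR of 1392 bases. The LIF site lies on chromosome 22 (30243333 to 30243339, minus strand, GRCh38), at base 312 of a 3′ UTR of 3204 bases. The other 8 genes had 0 matches of 7 or 8 bases in the transcript that was read for each. Of 19563 genes searched in the same way, 2587 (13.2%) had at least 1 such match. A match is a run of letters and does not show that the site is used.

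The second stretch shown belongs to CISH, a classic target of STAT proteins, because it held the letters TTCNNNGAA, the core that STAT proteins bind, more often than the windows of the other genes did. It runs from 250 to 91 bases before the gene's start in RefSeq (chr3:50611865-50612024, minus strand, GRCh38.p14), with the motifs in capitals.
CISH: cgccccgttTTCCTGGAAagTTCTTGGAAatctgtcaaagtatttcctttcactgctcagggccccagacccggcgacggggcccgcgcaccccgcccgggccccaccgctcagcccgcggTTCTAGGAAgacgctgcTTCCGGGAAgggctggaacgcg
The 4 motifs began 241, 230, 129 and 112 bases before the start. The motif reads the same on both strands. In windows of 300 bases around each start, 2 of the 3 LIFR windows held 1 motif each, and the windows of JAK1, OSMR, JAK2, STAT3, SOCS3 and TYK2 held none. Over all 35116 windows of that length, 2689 (7.7%) held at least 1 motif.

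The libraries held between 33973861 and 41890528 counts. A 0 allows up to 3 counts, which corresponds to 0.0712 to 0.0907 CPM (counts per 1000000 counts of the library) depending on the library; these limits cover counting error only. Levels below are CPM on library sizes scaled by TMM, given as mean ± SD over the 2 libraries of a group. The gene of the manipulated microRNA, MIR375, had 0 counts in all 8 libraries. Poly(A) libraries of this kind do not capture mature microRNAs, so this neither checks nor contradicts the labels. The lines matched their markers: 6 LNCaP markers, KLK2 and KLK3 among them, summed to between 5110 and 5140 CPM in LNCaP controls and to between 51.1 and 56.5 in PC3 controls, while 6 PC3 markers, VIM and CD44 among them, summed to between 34.7 and 41.8 and to between 2430 and 2440 CPM. Leukocyte markers were near 0 (summed level at most 1.80 CPM). In PC3 the summed level of 5 fibroblast markers was 172 to 184 CPM in controls and 394 to 415 with miR-375. Of the 5, 3 were called higher, 1 lower and 1 neither. Most of the sum was COL1A1, at 139 ± 4.03 CPM in controls and 373.2 ± 15.7 with miR-375. PDGFRA went the other way, from 33.7 ± 4.47 to 23.2 ± 1.07 CPM. DCN, 1 of the 5, had 0 counts in both controls and 34 over the miR-375 libraries. The summed level of 4 endothelial markers was 367 to 369 CPM in controls and 205 to 206 with miR-375. Nearly all of it was KDR (322.4 ± 1.20 and 172.9 ± 0.36 CPM) and PECAM1 (45.1 ± 0.07 and 32.3 ± 1.21 CPM). Of the 3 endothelial markers that passed the filter, 2 were called lower and 1 neither. VWF and CDH5 had 10 counts or fewer in every PC3 library. The part of the fibroblast and endothelial markers in the PC3 results below was not tested.

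All 10 genes passed the filter on low counts. STAT3, with 2 counts over the 4 PC3 libraries, passed it through the LNCaP libraries alone. In the comparison of controls, 8 of the 10 were higher in PC3 and 2, STAT3 and CISH, were lower; of all 21066 genes tested, 80.4% were called, 39.2% higher and 41.2% lower. With miR-375 in LNCaP, 4 of 10 rose (LIF, OSMR, TYK2 and STAT3) and 2 fell (LIFR and SOCS3), beside 32.6% of all genes called, 13.9% higher and 18.7% lower. With miR-375 in PC3, 1 of the 9 genes that could be compared rose (OSMR) and 6 fell (LIF, LIFR, JAK2, TYK2, SOCS2 and SOCS3), beside 43.0% of all genes called, 22.2% higher and 20.8% lower. STAT3 was at the floor of 3 counts in both PC3 groups and has no fold change there. The median log2 fold change over the genes was 0.15 in LNCaP (0 over all genes) and −0.31 in PC3 (0.02 over all genes). When libraries were scaled by total counts instead, the median of all genes in LNCaP moved by 0.12, all genes split into 4719 higher and 2613 lower in place of 2927 and 3933, and the 10 genes into 5 higher and 1 lower.

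**Figure D1:**
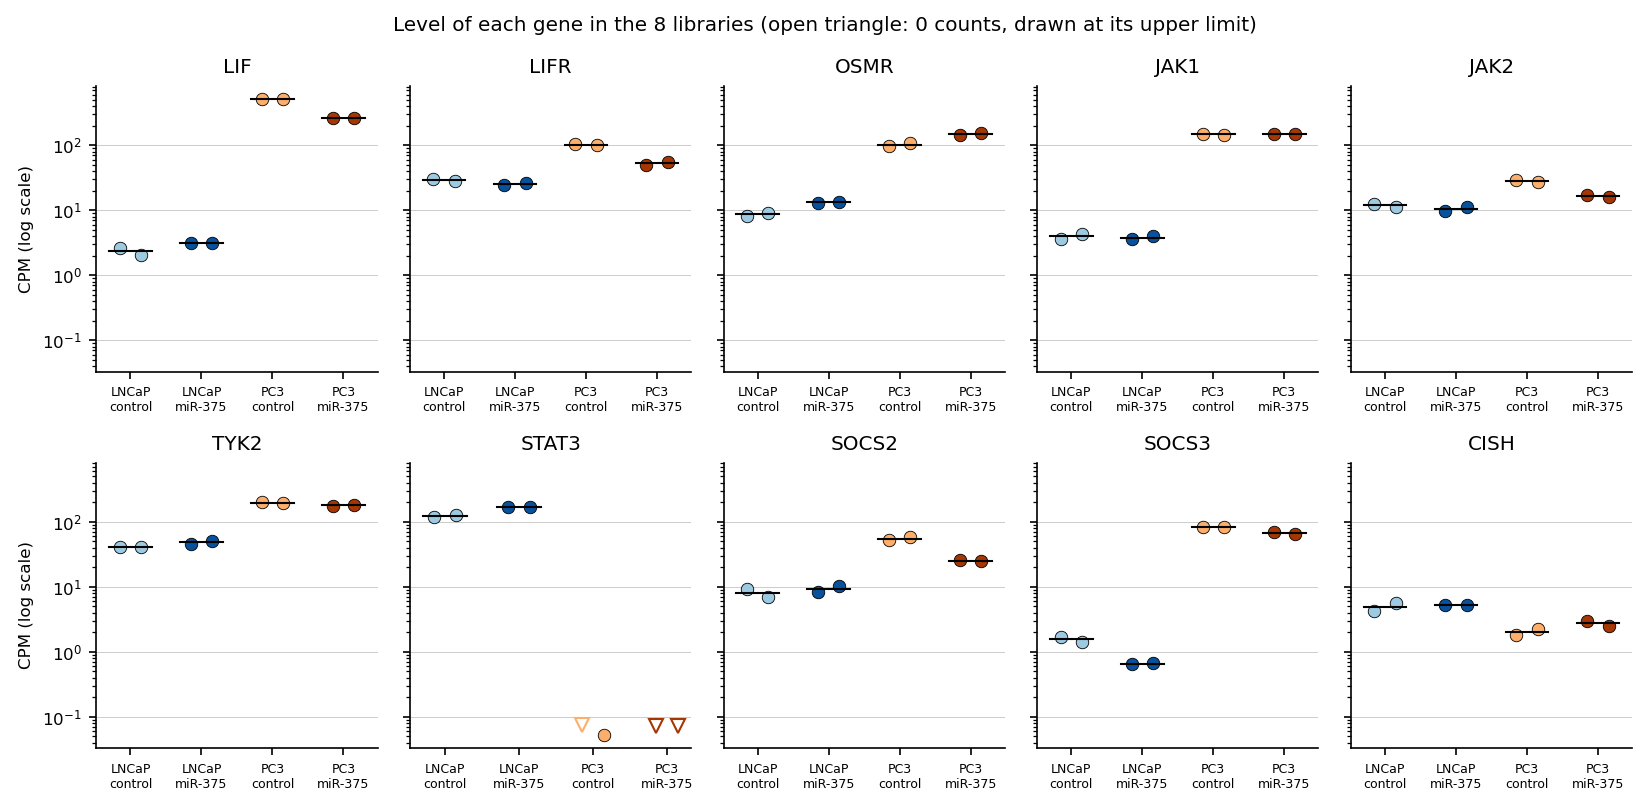
CPM (log axis) of each of the 10 genes in the 8 libraries; each point is 1 library, each bar the mean of a group, and an open triangle a library with 0 counts drawn at its upper limit. LIF and JAK1 stand far higher in PC3 than in LNCaP, and STAT3 is near 118.7 to 170.4 CPM in LNCaP and at or near 0 in all PC3 libraries, where the 1 library with 2 counts is drawn lower than the upper limits of the libraries with 0.

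The response of the 2 lines was also compared directly, as the LNCaP effect minus the PC3 effect. The difference was called for 6 of 9 genes, against 26.5% of all genes: it was above 0 for LIF, LIFR, JAK2, TYK2 and SOCS2 (10.9% of all genes) and below 0 for SOCS3 (15.6%). OSMR, JAK1 and CISH were not called. The median difference was 0.39, and −0.04 over all genes. Adjusted p-values throughout come from the quasi-likelihood test of edgeR, adjusted by Benjamini-Hochberg across all genes tested, and the ± beside a log2 value is its standard error. The labels do not say whether replicate libraries are separate cultures, so p-values reflect only how far these libraries vary, which can be technical variation.

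**Figure D2:**
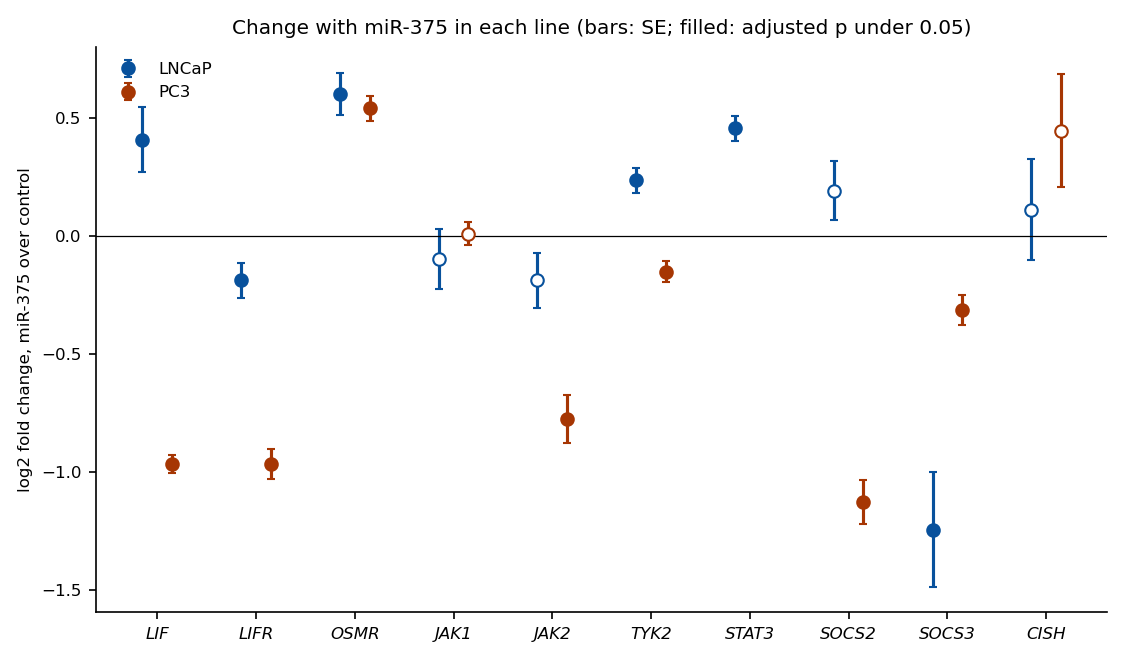
Log2 fold change with miR-375 for each gene in LNCaP (blue) and PC3 (brown); bars are the standard error, filled points have an adjusted p under 0.05, and STAT3 has no PC3 point because it was at the floor. LIF and TYK2 lie above 0 in LNCaP and below 0 in PC3, and OSMR lies near 0.60 and 0.54.

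LIF (ENSG00000128342, chromosome 22, 30240447 to 30246851, minus strand, GRCh38) is the ligand of the set. Its level was 2.60 and 2.09 CPM in the LNCaP controls, 3.12 and 3.10 in LNCaP with miR-375, 514.7 and 517.8 in PC3 controls, and finally 266.6 and 262.4 in the PC3 miR-375 libraries. The PC3 controls were the highest and the LNCaP controls the lowest, and no 2 groups overlapped. LIF was 220-fold higher in PC3 controls than in LNCaP controls (log2 7.78 ± 0.07). With miR-375 it fell by 0.97 ± 0.04 on the log2 scale in PC3 (1.95-fold, adjusted p 5.37e-22) and rose by 0.41 ± 0.14 in LNCaP (adjusted p 0.0198). The difference between the lines was 1.38 ± 0.14 (adjusted p 8.67e-10). The rise in LNCaP rests on few counts and on 1 library: it lost its call without LNCaP control 2 (0.31, adjusted p 0.23), and also with limma-voom (0.227), with LNCaP fitted alone (0.165) and with halved counts (0.0653). The antisense gene AC004264.1 shares 647 bases with LIF and had 444 counts over the PC3 libraries. LIF had 40573 counts in the PC3 controls and 22247 with miR-375. Without a stated strand setting, it is not known how reads in the shared bases were assigned. Shared bases here and below run from gene start to gene end, introns included, so the overlap of exons was not measured.

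LIFR (ENSG00000113594, chromosome 5, 38474963 to 38608354, minus strand) is the receptor chain that binds LIF. It read 29.9 and 28.5 CPM in the LNCaP controls, 24.6 and 26.7 in LNCaP with miR-375, 105.7 and 100.2 in PC3 controls, and finally 49.3 and 56.2 in the PC3 miR-375 libraries. The groups did not overlap, and both miR-375 groups lay under their controls. The fall was 0.96 ± 0.06 on the log2 scale in PC3 (1.95-fold, adjusted p 1.43e-15), and the line difference of 0.78 ± 0.10 was called (adjusted p 5.5e-08). In LNCaP the fitted change was −0.19 ± 0.07 (adjusted p 0.0494). That call sat at the threshold and was kept in 2 of 16 alternative settings: it was lost without any 1 of the 4 LNCaP libraries or of the 2 PC3 controls (adjusted p 0.0619 to 0.594) and with the replicate number as a block (0.0549). LIFR-AS1, on the other strand, had 519 counts in LNCaP and 443 in PC3.

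OSMR (ENSG00000145623, chromosome 5, 38845858 to 38945596, plus strand), the oncostatin M receptor, was the 1 gene of the 10 that rose in both lines. Its level was 8.25 and 9.25 CPM in the LNCaP controls and 13.2 and 13.5 with miR-375, and 98.8 and 107.5 in the PC3 controls against 146.6 and 153.9 with miR-375. No groups overlapped. The rise was 0.60 ± 0.09 in LNCaP (1.52-fold, adjusted p 7.45e-07) and 0.54 ± 0.05 in PC3 (1.46-fold, adjusted p 6.68e-11). The difference between the lines, 0.06 ± 0.10, was not called (adjusted p 0.752). OSMR shares 7678 bases with RICTOR on the other strand, which had 2007 counts over the LNCaP libraries and 14100 over the PC3 libraries. OSM, the ligand, had 0 to 8 counts in every library and was not tested. So LIFR and OSMR, receptor chains that can each pair with gp130, changed in opposite directions in PC3.

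JAK1 (ENSG00000162434, chromosome 1, 64833229 to 64966504, minus strand), the kinase that gp130 receptors depend on most, differed strongly between the lines and was not called with miR-375 in either. It read 3.69 and 4.38 CPM in the LNCaP controls, 3.58 and 3.99 in LNCaP with miR-375, 151.6 and 146.4 in PC3 controls, and finally 148.8 and 151.3 in the PC3 miR-375 libraries. The controls and miR-375 libraries overlapped within each line, and the lines did not. JAK1 was 36.8-fold higher in PC3 controls than in LNCaP controls (log2 5.20 ± 0.08, adjusted p 8.74e-37). The change with miR-375 was −0.10 ± 0.13 in LNCaP (adjusted p 0.634) and 0.01 ± 0.05 in PC3 (adjusted p 0.912), and its sign turned in both lines in some of the alternative settings.

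The low JAK1 level in LNCaP was set beside the 10 nearest protein-coding genes on each side. Both direct neighbours, RAVER2 (18.5 ± 0.72 CPM in LNCaP controls, 27.6 ± 1.26 in PC3 controls) and AK4 (209.5 ± 0.52 and 242.7 ± 1.58), were present in both lines at levels less than 2-fold apart. Farther out, 3 genes were at least 4-fold lower in LNCaP: PGM1 (phosphoglucomutase, 7.69-fold), CACHD1 (8.65-fold) and PDE4B (a cyclic AMP phosphodiesterase, 10.7-fold). LEPR, the leptin receptor, was low in both lines (1.34 ± 0.18 and 0.75 ± 0.18 CPM), WDR78 was under 1 CPM in LNCaP alone (0.77 ± 0.24 against 2.17 ± 0.31), and FOXD3, UBE2U, SGIP1, TCTEX1D1 and INSL5 were under 1 CPM in both.

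JAK2 (ENSG00000096968, chromosome 9, 4984390 to 5128183, plus strand), which carries the 2 seed matches shown above, read 12.7 and 11.1 CPM in the LNCaP controls and 9.84 and 11.1 with miR-375. In PC3 it read 29.6 and 27.5 in the controls and 17.3 and 16.1 with miR-375. The PC3 groups stood clearly apart, while in LNCaP the lower control and the higher miR-375 library had almost the same level. JAK2 fell by 0.77 ± 0.10 on the log2 scale in PC3 (1.71-fold, adjusted p 6.53e-08). In LNCaP the change was −0.19 ± 0.12 (adjusted p 0.248), and the line difference of 0.59 ± 0.16 was called (adjusted p 0.00375). JAK2 was 2.40-fold higher in PC3 controls than in LNCaP controls.

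TYK2 (ENSG00000105397, chromosome 19, 10350529 to 10380676, minus strand), a kinase shared with interferon and interleukin-12 receptors, moved little and in opposite directions. It read 41.8 and 40.4 CPM in the LNCaP controls and 46.4 and 50.4 with miR-375, a rise of 0.24 ± 0.05 (adjusted p 0.000555). In PC3 it read 202.8 and 194.1 in the controls and 176.2 and 181.6 with miR-375, a change of −0.15 ± 0.04 (adjusted p 0.00513). No groups overlapped, and the line difference was 0.39 ± 0.07 (adjusted p 3.62e-05). The PC3 fall lost its call with total-count scaling (−0.07, adjusted p 0.189), without PC3 control 1 (−0.12, 0.116) and without PC3 miR-375 library 1 (−0.13, 0.0841).

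STAT3 (ENSG00000168610, chromosome 17, 42313324 to 42388568, minus strand), the transcription factor at the end of the route, was abundant in LNCaP and all but missing in PC3. It had 3926 and 4488 counts in the LNCaP controls (118.7 and 128.6 CPM) and 6242 and 6154 with miR-375 (169.2 and 170.4 CPM). The PC3 libraries had 0 and 2 counts in the controls and 0 and 0 with miR-375, where 0 counts allow at most 0.0712 to 0.0749 CPM. All LNCaP libraries were thus above all PC3 libraries, and the miR-375 libraries of LNCaP were above their controls. In LNCaP STAT3 rose by 0.46 ± 0.05 with miR-375 (1.37-fold, adjusted p 8.8e-09). Between the controls, 8414 counts in LNCaP stood against 2 in PC3, a ratio of 4860 at equal scaled depth (95% exact interval for the counts, 1350 to 40200).

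The loss of signal in PC3 was not limited to STAT3. Along chromosome 17 (42101404 to 42423517, 322 kb, GRCh38), 12 protein-coding genes in a row had at most 3 counts over the 4 PC3 libraries, and 10 of them had 0. This run was traced outward from STAT3 after its values were seen. Of the 12, 8 had over 100 counts in LNCaP and 3 had at most 3 counts there too. STAT5B and STAT5A, transcription factors of the same family, lie in it: LNCaP controls had 2298 and 50 counts and PC3 controls 0, at least 885-fold and 19.3-fold lower (against 3 counts over the group). KAT2A, a histone acetyltransferase, had 12694 counts in LNCaP controls against 2 in PC3 controls, and RAB5C, a small GTPase of early endosomes, had 4749 and 0. GHDC, CAVIN1 (a coat protein of caveolae) and DHX58 (a viral RNA sensor) were at least 448-fold, 196-fold and 80.9-fold lower in PC3. DNA was not measured, so a missing segment and a silent segment cannot be told apart here.

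The edges of the run were set by the limit of 3 counts over the PC3 libraries. Genes on both sides exceeded it, but the low PC3 level extended past CAVIN1 to ATP6V0A1. C17orf113, the gene before it, had 266 counts over the PC3 libraries and 525 over the LNCaP libraries. ATP6V0A1, a subunit of the vacuolar proton pump and the gene after it, had 24 PC3 counts against 10865 in LNCaP (0.18 ± 0.18 and 68.8 ± 3.94 CPM in the controls). The next genes were at intermediate levels: NAGLU read 9.89 ± 0.18 CPM in PC3 controls and 53.9 ± 1.13 in LNCaP controls, HSD17B1 (a steroid dehydrogenase) 1.33 ± 0.13 and 8.13 ± 1.11, and COASY 99.1 ± 1.98 and 127.6 ± 2.84.

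**Figure D3:**
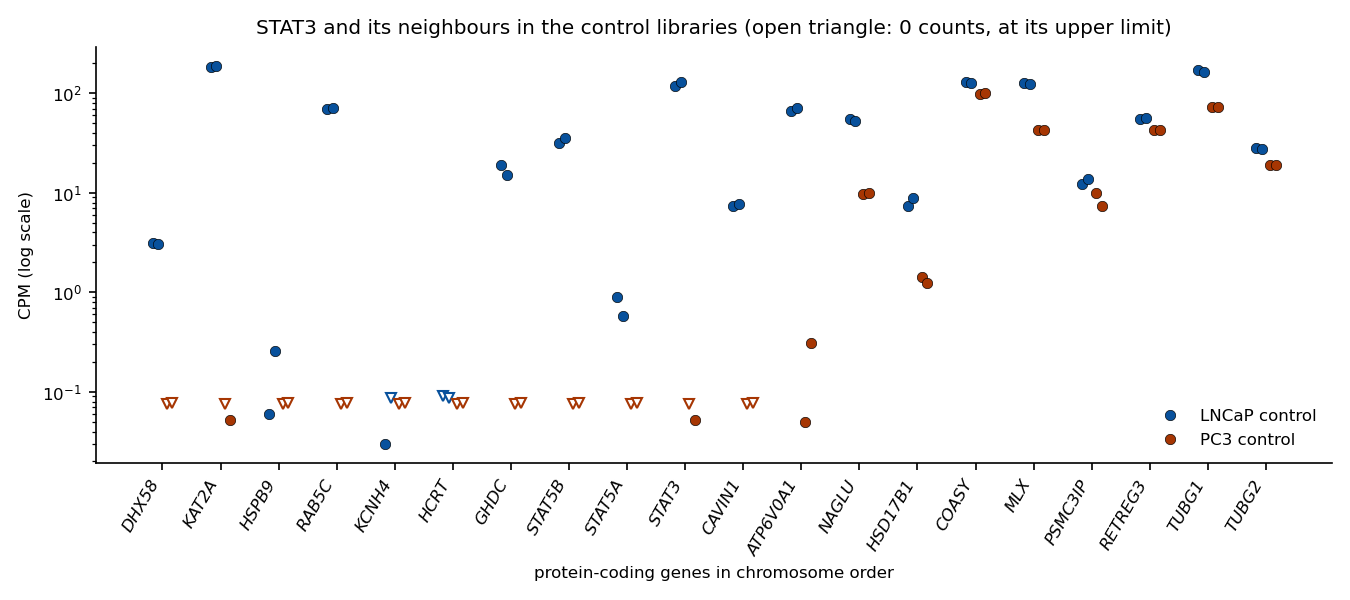
CPM (log axis) of STAT3 and protein-coding genes around it, in chromosome order, in the 2 LNCaP controls (blue) and the 2 PC3 controls (brown); open triangles are 0 counts at their upper limit, and AC099811.2, at 0 in all libraries, is not drawn. From DHX58 to CAVIN1 the PC3 points lie at or under the limit of 0 counts. Beyond ATP6V0A1 they vary without a steady rise, with PC3 control means of 9.89 CPM for NAGLU, 1.33 for HSD17B1 and 99.1 for COASY.

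SOCS3 (ENSG00000184557, chromosome 17, 78356778 to 78360077, minus strand), the inhibitor that binds gp130 and LIFR, fell in both lines. It read 1.69 and 1.43 CPM in the LNCaP controls and 0.65 and 0.66 with miR-375, and 83.2 and 84.2 in the PC3 controls against 70.0 and 64.9 with miR-375. All groups stood apart, and the step between the lines was far larger than any change with miR-375 (53.6-fold between the controls, log2 5.74 ± 0.11). The fall was 1.24 ± 0.24 on the log2 scale in LNCaP (2.36-fold, adjusted p 7.58e-05) and 0.31 ± 0.06 in PC3 (adjusted p 0.000115). The line difference was −0.93 ± 0.25 (adjusted p 0.00464), but it lost its call without LNCaP control 1 (−0.73, 0.0789), without LNCaP miR-375 library 1 (−0.84, 0.0562), with limma-voom (0.124) and with halved counts (0.0543).

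SOCS2 (ENSG00000120833, chromosome 12, 93569814 to 93583487, plus strand), an inhibitor best known from growth hormone signalling, fell in PC3. Its level was 52.7 and 57.8 CPM in the PC3 controls and 25.8 and 24.9 with miR-375, a fall of 1.12 ± 0.09 on the log2 scale (2.18-fold, adjusted p 9.58e-13). In LNCaP it read 9.19 and 7.05 in the controls and 8.30 and 10.3 with miR-375, and these groups overlapped. The LNCaP change of 0.19 ± 0.12 was not called (adjusted p 0.259), and the line difference of 1.32 ± 0.16 was (adjusted p 1.53e-08). SOCS2 did pass the test in LNCaP without control 1 (0.45, adjusted p 0.0188), without miR-375 library 1 (0.39, 0.0379) and with total-count scaling (0.32, 0.0454). SOCS2-AS1 shares 1955 bases with SOCS2 and had 526 counts over the PC3 libraries. Between the controls SOCS2 was 6.82-fold higher in PC3.

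CISH (ENSG00000114737, chromosome 3, 50606490 to 50611831, minus strand), whose start region holds the 4 motifs shown above, was not called with miR-375 in either line. It read 4.20 and 5.61 CPM in the LNCaP controls, 5.31 and 5.32 in LNCaP with miR-375, 1.80 and 2.23 in PC3 controls, and finally 2.95 and 2.54 in the PC3 miR-375 libraries. The LNCaP groups overlapped and the PC3 groups did not. The change was 0.11 ± 0.21 in LNCaP (adjusted p 0.763) and 0.45 ± 0.24 in PC3 (adjusted p 0.138). CISH and STAT3 were the members lower in PC3 controls than in LNCaP controls, CISH by 2.44-fold (adjusted p 6.63e-06). MAPKAPK3, on the other strand, shares 312 bases with CISH and had 18065 counts in LNCaP and 23045 in PC3, so even a small share of misplaced reads would weigh on CISH.

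Per kilobase of exon, levels can be set side by side between genes. These values are approximate, since exon lengths are from GENCODE 29 and the annotation behind the counts is not given. In LNCaP controls, IL6ST stood at 9.15 ± 0.45 RPKM (here CPM divided by exon length in kilobases), LIFR at 2.46 ± 0.08 and OSMR at 1.22 ± 0.10. IL6R, the interleukin-6 receptor chain, was above these in LNCaP controls (11.2 ± 0.44) and below them in PC3 controls (5.57 ± 0.10). Among IL6ST, OSMR and LIFR the order in PC3 controls was IL6ST (39.6 ± 0.21), OSMR (14.4 ± 0.86) and LIFR (8.68 ± 0.33). In PC3 with miR-375 it was IL6ST (27.6 ± 0.04), OSMR (20.9 ± 0.71) and LIFR (4.45 ± 0.41). OSMR was thus above LIFR in PC3 and below it in LNCaP controls, and LIF itself was the most abundant of the members in PC3 controls, at 130.1 ± 0.55 RPKM.

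Among the kinases in LNCaP controls the order per length was TYK2 (6.07 ± 0.14 RPKM), JAK2 (1.93 ± 0.18) and JAK1 (0.64 ± 0.08). In PC3 controls TYK2 (29.3 ± 0.91) and JAK1 (23.6 ± 0.58) were both well above JAK2 (4.63 ± 0.23). Among these 3 kinases JAK1 was therefore the least abundant in LNCaP and next to TYK2 in PC3. Among the inhibitors of the set, SOCS2 (1.20 ± 0.22), CISH (0.96 ± 0.20) and SOCS3 (0.57 ± 0.07) lay near each other in LNCaP controls, the first pair within their spread. In PC3 controls SOCS3 (30.6 ± 0.26) was far above SOCS2 (8.16 ± 0.53) and CISH (0.39 ± 0.06). SOCS1, which is not in the set, stood at 0.21 ± 0.03 in LNCaP controls and at 5.015 ± 0.062 in PC3 controls, between SOCS2 and CISH. STAT3 stood at 14.0 ± 0.79 RPKM in LNCaP controls and STAT5B at 5.23 ± 0.40.

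The other genes of the pathway were read from 6 lists with 102 genes in all, of which 85 passed the filter. With miR-375 in LNCaP, 11 of 81 rose and 11 fell (median 0.06). In PC3, 36 of 80 rose and 15 fell (median 0.24). The LNCaP count of higher genes was 23 with total-count scaling, 17 without a low-count filter and 18 with halved counts. These totals are over the 6 lists pooled, and the shares over all genes were 13.9% higher and 18.7% lower in LNCaP and 22.2% and 20.8% in PC3; single lists lay above and below these shares, and most hold too few genes to read a share from.

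Of the other ligands of the gp130 family, 1 rose and 1 fell of 8 in LNCaP, and 2 rose of 7 in PC3. IL6, the founding ligand, moved in opposite directions: it had 17 and 11 counts in the LNCaP controls and 0 in both LNCaP miR-375 libraries, at least 10-fold lower against 3 counts over the group (adjusted p 1.29e-05), and in PC3 it rose from 2.99 ± 0.10 to 11.2 ± 0.28 CPM (3.74-fold, adjusted p 1.23e-09). The interaction of IL6 was called (adjusted p 4.04e-08). IL11 rose in PC3 from 26.5 ± 1.65 to 54.4 ± 3.15 CPM (adjusted p 3.13e-12). In LNCaP it went from 1.44 ± 0.20 to 2.30 ± 0.38 CPM (adjusted p 0.00884), a call lost without control 1 (0.0709), without miR-375 library 2 (0.116) and with limma-voom (0.134). LIF was thus the ligand that fell in PC3 while IL6 and IL11 rose.

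Of the other gp130 family receptors, 2 of 5 rose in LNCaP and 1 of 6 rose and 3 fell in PC3. IL6ST, gp130 itself, rose from 85.0 ± 4.18 to 104.4 ± 10.7 CPM in LNCaP (log2 0.30, adjusted p 1.03e-05) and fell from 368.4 ± 1.99 to 256.1 ± 0.40 CPM in PC3 (by 0.52, adjusted p 4.76e-12). Its line difference was 0.82 (adjusted p 8.19e-12). IL6R, the interleukin-6 receptor chain, fell in PC3 from 35.9 ± 0.63 to 21.0 ± 0.10 CPM and was not called in LNCaP (adjusted p 0.286). IL27RA rose by 0.87 in LNCaP (adjusted p 0.0028, but 0.0722 with limma-voom), and IL31RA, the chain that pairs with OSMR for interleukin-31, fell by 0.53 in PC3 (adjusted p 0.00282).

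Of 22 other receptors that use JAK kinases, 2 rose and 1 fell in LNCaP (IL4R by 0.48, IFNGR2 by 0.37 and IFNAR1, which fell by 0.31), and 8 rose and 3 fell in PC3. In PC3 the interferon receptor chains IFNGR2 and IFNLR1 rose by 0.85 and 0.75, and GHR, the growth hormone receptor, fell by 0.79. IL15RA rose by 0.72 in PC3 (adjusted p 0.0198), a call lost without PC3 control 1 (0.123) and without PC3 miR-375 library 1 (0.0794). The IL4R call was lost with limma-voom (adjusted p 0.06).

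Among the other JAK and STAT genes, STAT4 rose in PC3 from 1.21 ± 0.06 to 7.31 ± 1.91 CPM, JAK3 from 13.7 ± 0.85 to 26.6 ± 1.56, and STAT6, the interleukin-4 factor, from 98.5 ± 7.49 to 157.5 ± 4.16. STAT2 rose by 0.23 in both lines. STAT5A and STAT5B had 0 counts in all PC3 libraries, and in LNCaP STAT5B was not called (−0.03, adjusted p 0.879).

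Of 17 other negative regulators, 1 rose and 2 fell in LNCaP, and 5 rose and 4 fell in PC3. The PC3 counts were near the 22.2% and 20.8% of all genes, and in LNCaP fewer were called than the 32.6% of all genes. SOCS1, which like SOCS3 can block JAK kinases directly, fell in PC3 from 9.01 ± 0.11 to 4.79 ± 0.44 CPM (adjusted p 0.000196). In LNCaP it read 0.38 ± 0.06 and 0.71 ± 0.09 CPM (log2 0.89, adjusted p 0.0795, and 0.0407 with total-count scaling), and the line difference was 1.80 (adjusted p 0.00152). PTPN1, a phosphatase of JAK2 and TYK2, fell in both lines, by 0.82 in LNCaP (65.0 ± 1.82 to 36.8 ± 0.95 CPM) and by 0.65 in PC3 (114.6 ± 3.63 to 73.1 ± 0.68). USP18, which dampens interferon receptors, rose by 0.45 in LNCaP (adjusted p 0.00949, but 0.0841 without control 2) and by 0.70 in PC3. SOCS4 fell by 0.48 in LNCaP, and SOCS7 rose by 0.71 in PC3.

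Of the genes known as STAT3 targets, 23 had a value in each line, and 21 had a value in both. FGB and FGG were at the floor in LNCaP, and FGA and A2M in PC3, so the lines are not compared over the same genes. In LNCaP, where STAT3 rose, 4 rose and 7 fell (median −0.11). In PC3, where STAT3 was at the floor, 15 rose and 5 fell (median 0.51). Over all genes 13.9% rose and 18.7% fell in LNCaP and 22.2% and 20.8% in PC3. The LNCaP rises and the PC3 falls in this list were near those shares. The PC3 rises (15 of 23) and, by less, the LNCaP falls (7 of 23) were above them. The list was chosen with earlier results of these data known, and the cause of these counts was not tested. Many of these genes answer to other factors as well. BCL2L1, which encodes the survival protein BCL-xL, rose in LNCaP from 76.4 ± 4.71 to 114.3 ± 0.19 CPM and fell in PC3 from 395.3 ± 5.25 to 198.4 ± 8.21, with a line difference of 1.58 (adjusted p 3.06e-21). MYC did the reverse: it fell in LNCaP from 349.5 ± 7.43 to 185.2 ± 2.77 CPM and rose in PC3 from 90.7 ± 5.83 to 158.7 ± 7.25 (line difference −1.72, adjusted p 3.61e-22). TIMP1, a metalloproteinase inhibitor, fell by 1.05 in LNCaP and rose by 1.07 in PC3 (line difference −2.12, adjusted p 2.05e-07), and KLF4 fell in both lines, by 0.74 in LNCaP and by 0.33 in PC3. The acute-phase genes FGB, FGG and SAA1 rose in PC3, FGB from 18 counts in each control to 3092 and 3094 with miR-375. FGG rose by 5.48, from 2 and 4 counts in the controls to 180 and 118, and SAA1 by 1.88. With at most 2 counts in any LNCaP library, FGG passed the filter through the PC3 miR-375 libraries alone. PIM1, a kinase gene, rose in PC3 from 50.7 ± 2.28 to 144.0 ± 6.01 CPM.

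**Figure D4:**
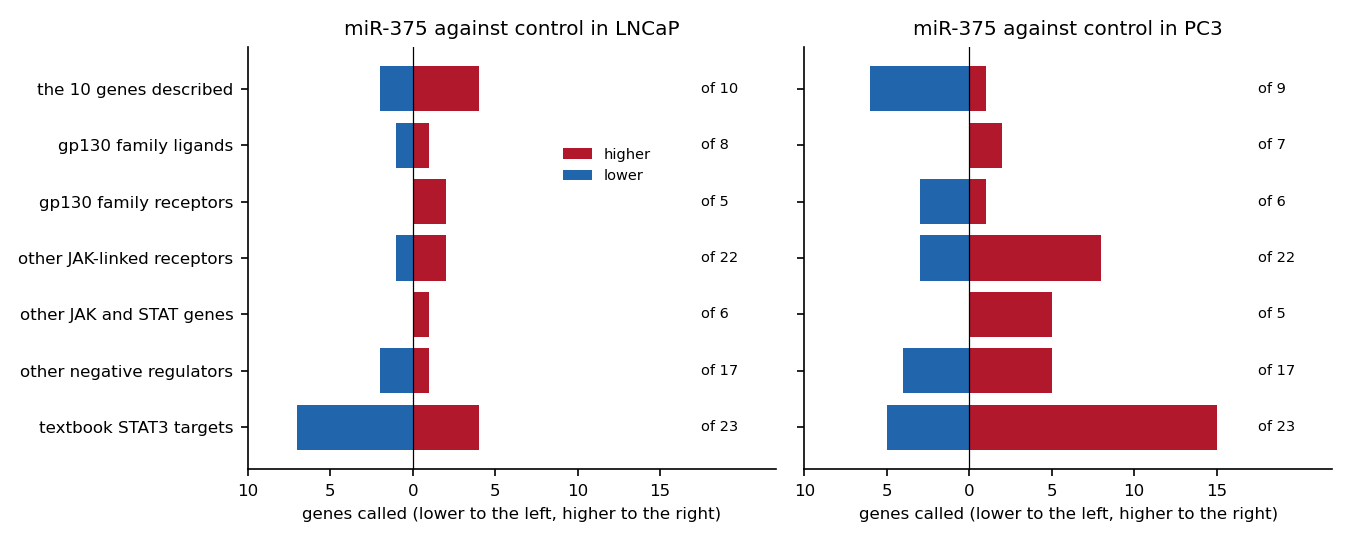
Number of genes called higher (red, to the right) and lower (blue, to the left) with miR-375 in LNCaP and in PC3, for the 10 genes described and for the 6 other lists; the number beside each bar is how many genes could be compared. In PC3 the 10 genes have 1 higher and 6 lower, while STAT3 targets have 15 higher and 5 lower.

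For each of the 9 genes with a value in every comparison, the tested genes most like it were found by the Euclidean distance over 3 log2 values, the LNCaP effect, the PC3 effect and the difference between controls. CISH had the closest neighbours, ZNF771 (0.0151) and H3-3A (0.0194), in a range of small changes where many genes lie. JAK2 was close to POLH (0.0496) and TPMT (0.131), SOCS2 to FBXL7 (0.0537) and RAPGEF3 (0.171), and TYK2 to ANKRD34A (0.0657) and PDP1 (0.0734). OSMR was closest to AL117336.2 (0.0907) and SHFL (0.0914), LIFR to LRRC8A (0.128) and AC092747.4 (0.144), JAK1 to ANKRD20A5P (0.184) and MCF2L2 (0.195), and SOCS3 to AC083855.2 (0.195) and AC007285.1 (0.247). LIF had the most distant ones, POGLUT3 (0.252) and SHISA3 (0.426), both also over 7 log2 units higher in PC3 controls and with fitted changes below 0 in PC3.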

How the data were processed

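RNA of 8 libraries was analysed: LNCaP and PC3, control and miR-375, 2 libraries per group, with groups and replicate numbers taken from the sample titles. The authors deposited unnormalized whole-number counts per gene, in 1 table. Tools named in the submitters' processing notes are DESeq2, featureCounts, fastp and STAR 2.7.1a, on hg38; what each did, which annotation was used and how strand was treated is not given in the sources here. Libraries were poly(A)-selected, dUTP-marked and read as pairs, per the labels' protocols. Of counts from 1 to 20, 68.1% to 70.3% per library were even, and no source says if a count is a read or a pair. Were mates counted singly, counting intervals and limits are too narrow, so halved counts were an alternative. Of 60625 gene lines, 3 broken ones (279 counts) were left out, so ANK2 was not analysed here.

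The replicates of a group differed by more than sampling noise (chi-square per degree of freedom 3.65 to 3.82), and none was treated as a duplicate. Genes passing filterByExpr (21066) were fitted in 1 model of 4 groups (4 residual degrees of freedom) with edgeR 4.0.16 in R 4.3.3, by glmQLFit with robust estimation and glmQLFTest, on TMM-scaled library sizes (factors 0.957 to 1.06). Contrasts were miR-375 against control in each line, their difference, and PC3 control against LNCaP control, called at a Benjamini-Hochberg adjusted p under 0.05. Where both groups had at most 3 counts, no fold is given. Alternatives (16 settings) were total counts or DESeq2 size factors, no filter, DESeq2 1.42.0, limma-voom (limma 3.58.1), each line alone, a replicate block, halved counts and leaving out each library. Positions, exon lengths and seed matches are from GENCODE 29, which is on GRCh38, the same assembly as hg38; promoter windows and the miRNA are from RefSeq (GRCh38.p14), where 8 of the 10 genes had a window.

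The members and gene lists were chosen with earlier results of these data known. Named genes were the 10 members in every comparison; IL6, IL6R, IL6ST, IL11, OSM, STAT5A, STAT5B and SOCS1 (1 further gene is not reported here); in each other list and line up to 4 called genes with the largest change and at least 1 CPM in the higher group; up to 2 genes most like each member among those of mean CPM of at least 1; neighbours of STAT3 and JAK1 under 1 CPM or at least 4-fold lower in 1 line; and line markers. Genes named outside this rule (RAVER2, AK4, COASY and C17orf113, as neighbours, the antisense and overlapping genes, and markers of other cell types) were chosen after their values were seen.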

Additional observations from a re-analysis of the deposited data

Results flagged for a closer look

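For 6 of the 10 genes the change with miR-375 differed between the lines by the interaction term of the edgeR model, given here as the LNCaP effect minus the PC3 effect on the log2 scale. The difference was 1.38 for LIF, 1.32 for SOCS2, 0.78 for LIFR, 0.59 for JAK2, 0.39 for TYK2 and −0.93 for SOCS3. LIF and TYK2 were called in opposite directions in the 2 lines, JAK2 and SOCS2 were called in PC3 and not in LNCaP, and LIFR and SOCS3 were called lower in both, LIFR by more in PC3 and SOCS3 by more in LNCaP. Calls within a line were less stable than the differences for some of these genes: the LNCaP call of LIFR was kept in 2 of 16 alternative settings, that of LIF was lost without LNCaP control 2 (adjusted p 0.23), the PC3 call of TYK2 was lost without PC3 control 1 (0.116) and without PC3 miR-375 library 1 (0.0841), and SOCS2 passed in LNCaP in 3 settings (adjusted p 0.0188 to 0.0454). Of the 6 differences, that of SOCS3 is the one that was lost when 1 library was left out (without LNCaP control 1, adjusted p 0.0789, and without LNCaP miR-375 library 1, adjusted p 0.0562).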

How the results depend on the processing

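The number of the 10 genes called lower in LNCaP was 2 and became 1 with total counts, DESeq2 size factors, no filter, DESeq2, limma-voom, each line fitted alone, the replicate block and halved counts, and ran from 1 to 2 when 1 library was left out; in all of these LIFR was the gene lost. The number below 0 in the line difference was 1 (SOCS3) and became 0 with limma-voom and halved counts, and ran from 0 to 1 with 1 library left out. Other pathway genes called higher in LNCaP were 11, and 23 with total counts, 17 with no filter and 18 with halved counts. Of values of single genes under the alternatives, 1145 kept direction and side of the threshold, 33 lost the call, 4 gained it and 30 turned sign, none of them a called value.

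The values that turned sign were small or rested on few counts. With total counts, JAK1 in LNCaP became 0.025, IL6R 0.033 and STAT5B 0.091, all in LNCaP. With limma-voom STAT5A in LNCaP became −0.054, and with the replicate block −0.026. STAT5B in LNCaP became 0.009 with DESeq2 size factors and with DESeq2, 0.035 with no filter and 0.023 with halved counts. JAK1 in PC3 became −0.003 with DESeq2 size factors and with DESeq2, −0.019 with no filter, −0.012 with PC3 fitted alone and −0.011 with halved counts. With 1 library left out, LNCaP changes ran from −0.16 to 0.087 for JAK1, −0.026 to 0.39 for CISH, −0.083 to 0.003 for IL6R, −0.718 to 0.627 for STAT5A and −0.054 to 0.1 for STAT5B; JAK1 ran from −0.025 to 0.038 in PC3 and from −0.144 to 0.103 in the line difference. The cause of these turns was not tested.

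Samples with the same replicate number showed no shared deviation (r from −0.027 to 0.014 across genes between groups). All tested genes weigh alike in r, low-count ones included, so it cannot show whether the numbers pair the samples. With the replicate block the other pathway genes numbered 11 higher and 11 lower in LNCaP and 37 and 15 in PC3, and LIFR in LNCaP (adjusted p 0.0549) was the 1 member that lost its call. Whether depth limits the calls of members at low levels in LNCaP was not tested beyond halved counts, with which LIF lost its LNCaP call (adjusted p 0.0653) and SOCS3 kept it.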
